A study of Mus musculus with 2 samples.

Results

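The 7 genes described here encode the ion channels through which microglia, the resident macrophages of the brain, pass potassium ions and protons: Kcnk13, Kcnk6, Kcnma1, Kcnn4, Kcnj2, Kcnd1 and Hvcn1. They were chosen by symbol, as channel genes of microglia, with earlier results of these data known. All 7 were found among the 32285 genes counted. Brain cells sorted as CD45+ and viable were taken from 4 Tg(Cx3cr1-Cre) Arpc4 fl/fl mice (Arpc4dCx3cr1) and 4 Arpc4 fl/fl littermates without Cre (control), all 12 weeks old. The Cx3cr1 promoter drives Cre in microglia and in the other macrophages of the brain, and Arpc4 encodes a subunit of the Arp2/3 complex, which nucleates branched actin filaments. Before the 8 mice were combined in 1 library, their cells were marked with oligonucleotide tags, so that a mouse is the replicate and its cells are not. A female Arpc4dCx3cr1 mouse among otherwise male animals was left out by the study and is not named in the labels. Here all 8 mice were used.

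Potassium channels that are open at rest hold the membrane of microglia at a negative potential, and the loss of potassium from the cell is a known trigger of the NLRP3 inflammasome. Kcnk13 (THIK-1) and Kcnk6 (TWIK-2) are tandem-pore leak channels, of which THIK-1 is known for its part in the resting potential and the surveillance of the tissue by microglia. Kcnma1 (the BK channel) and Kcnn4 open with intracellular calcium, Kcnj2 is an inward rectifier that macrophages are known to gain upon activation, and Kcnd1 is a voltage-gated channel of the transient (A-type) kind. Hvcn1 forms the voltage-gated proton channel, which carries protons out of phagocytes while the NADPH oxidase moves electrons across the membrane.

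In GRCm38 all 7 are protein-coding genes. Kcnk13 lies on chromosome 12 from 99964499 to 100062682 (plus strand), Kcnk6 on chromosome 7 from 29221926 to 29232515 (minus strand) and Kcnn4 on the same chromosome from 24370263 to 24386690 (plus strand). Kcnj2 lies on chromosome 11 from 111066164 to 111076821 (plus strand), Kcnma1 on chromosome 14 from 23289431 to 24014491 (minus strand), Kcnd1 on chromosome X from 7822289 to 7838280 (plus strand) and Hvcn1 on chromosome 5 from 122206804 to 122242297 (plus strand). No other counted gene overlaps them on their own strand. On the opposite strand Hvcn1 overlaps Tctn1, and Kcnma1 overlaps Gm29626 and 4930519K11Rik.

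Kcnj2 and Kcnn4 were the members with the largest rise in Arpc4dCx3cr1 microglia (given with their values further on), and the 250 bases upstream of their annotated starts are shown for that reason (RefSeq, GRCm38.p6, plus strand, 5′ to 3′). Capitals mark matches on either strand to GAGGAA (core of sites of the ETS family, which includes PU.1), CACGTG (E-box), TGANTCA (AP-1) and CAGACA (SMAD). No matches overlap.
Kcnj2, chr11:111065914-111066163: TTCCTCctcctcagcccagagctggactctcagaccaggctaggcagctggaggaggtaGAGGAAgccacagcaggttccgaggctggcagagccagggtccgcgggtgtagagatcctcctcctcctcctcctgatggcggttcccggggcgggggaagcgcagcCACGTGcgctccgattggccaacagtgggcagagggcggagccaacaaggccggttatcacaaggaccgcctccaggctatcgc
Kcnn4, chr7:24370013-24370262: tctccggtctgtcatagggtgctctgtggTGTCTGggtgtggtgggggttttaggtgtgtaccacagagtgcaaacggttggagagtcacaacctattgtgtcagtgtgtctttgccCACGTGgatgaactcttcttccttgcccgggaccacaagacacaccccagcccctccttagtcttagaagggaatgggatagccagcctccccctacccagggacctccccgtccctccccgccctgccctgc
Both windows hold 1 CACGTG, which starts 84 bases before the start of Kcnj2 and 133 bases before that of Kcnn4. Of 32851 promoter windows of this length, 6.02% hold this motif. Kcnj2 also has 2 matches to GAGGAA (in 23.3% of windows), and Kcnn4 has 1 to CAGACA (in 17.1%), while neither holds TGANTCA (in 6.75%). Among the other members, sequences were at hand for Kcnk13, with 1 match to GAGGAA and 1 to CAGACA, and for Kcnma1, with no match. A match is a run of letters and does not show that a factor binds.

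The tables held 19864 cell barcodes, with none shared between mice, and 5251527 to 12878691 unique molecular identifiers (UMIs, each standing for 1 captured RNA molecule) per mouse. Clusters of cells were named from marker genes, and 17021 cells were microglia-like (7782 control, 9239 Arpc4dCx3cr1). UMIs were summed over the microglia-like cells of each mouse and are given as CPM, the UMIs of a gene relative to the total of the sum, scaled by a TMM factor that corrects for composition. In such sums, fewer cells that hold a transcript and less of it per cell cannot be told apart. Arpc4 itself stood at 216 to 236 CPM in the controls and at 138 to 153 CPM in the Arpc4dCx3cr1 mice (log2 fold change −0.63, SE 0.05), and whether its 3′ counts fall on the deleted part was not checked. Arpc4 overlaps Ttll3 on the same strand. The 10 microglial markers summed to 22202 to 22535 CPM in the controls and 8744 to 12579 CPM in the Arpc4dCx3cr1 mice, with none at 0 in any mouse. Arpc4dCx3cr1 mouse 1 stood apart from the rest, with 1384 CPM of Xist against 3.68 to 13.3 CPM in the other 7 mice, and with 1490.5 CPM of 4 hemoglobin genes against 2.39 to 4.21 CPM. Its Xist level marks it as the likely female that the study left out, although the labels do not name that animal. Each member is therefore also given without mouse 1. Other marker sums in microglia-like cells also moved with genotype, without overlap between the groups. T cell markers summed to 66.7 to 78.8 CPM in the controls and 10.4 to 41.8 CPM in the Arpc4dCx3cr1 mice, B cell markers to 234 to 250.3 CPM and 78.9 to 145 CPM, and dendritic cell markers to 1626.5 to 1765.6 CPM and 1117.9 to 1420 CPM. Higher in the Arpc4dCx3cr1 mice were granulocyte markers (388 to 408 CPM and 423 to 605 CPM) and natural killer cell markers (0.722 to 1.06 CPM and 2.42 to 4.47 CPM). Siglech is in both the dendritic cell list and the 10 microglial markers, so the dendritic sum does not measure dendritic cells alone. The part of such other cells in the results was not tested. Since transcripts were counted from 1 end, levels of different genes are not compared.

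The first comparison asked how the channel genes differ between microglia-like cells of Arpc4dCx3cr1 and control mice. Kcnn4, Kcnj2 and Hvcn1 rose in Arpc4dCx3cr1 microglia, Kcnk6 and Kcnd1 fell, and Kcnk13 and Kcnma1 did not pass the test. Thus 5 of the 7 members passed an adjusted p of 0.05 (edgeR, quasi-likelihood test, Benjamini-Hochberg adjusted over 12728 genes). Of all the genes tested, 46.1% did so, 22.9% with a rise and 23.2% with a fall. The values of the 2 genotypes did not overlap for these 5 members, which held for 44.3% of all genes.

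**Figure D1:**
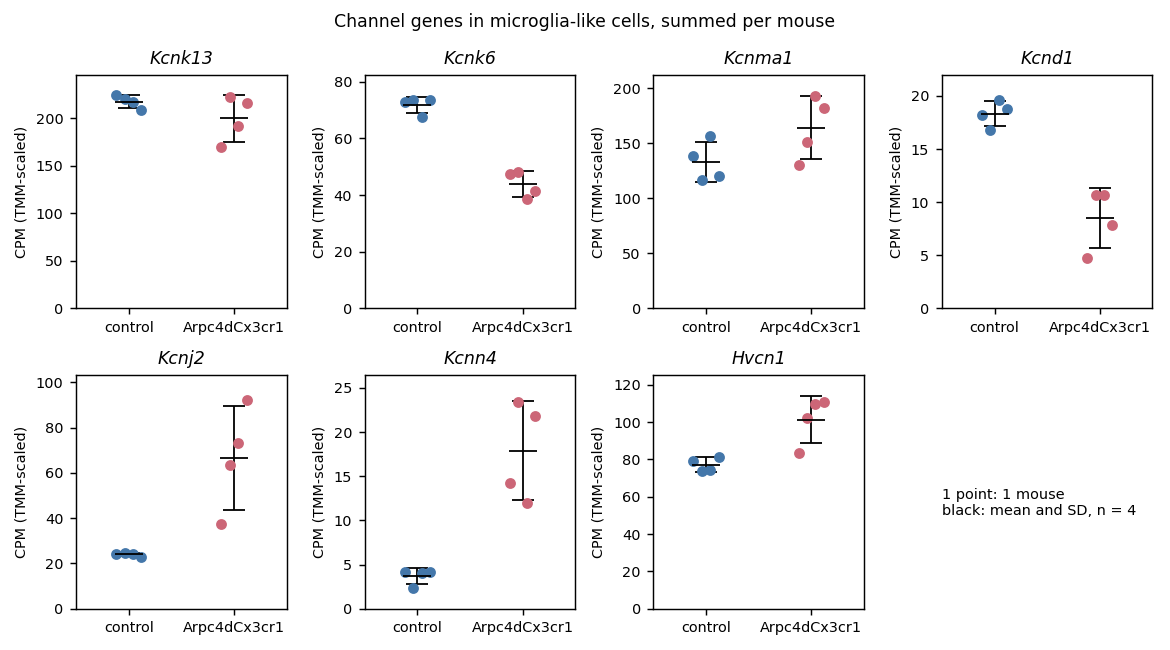
Levels of the 7 channel genes in microglia-like cells (y axis, TMM-scaled CPM from 0) in control (blue) and Arpc4dCx3cr1 (red) mice, 1 point per mouse, with black marks for the mean and SD of 4 mice. The red points of Kcnj2, Kcnn4 and Hvcn1 lie above all blue ones, those of Kcnk6 and Kcnd1 lie below, and those of Kcnk13 and Kcnma1 overlap with them.

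Kcnk13, the THIK-1 gene, was counted at 225.1, 220.2, 217 and 208 CPM in control mice 1 to 4 and at 169, 223, 191 and 216 CPM in Arpc4dCx3cr1 mice 1 to 4. The groups overlapped, and only Arpc4dCx3cr1 mice 1 and 3 lay below every control. The log2 fold change was −0.12 (SE 0.08, 95% interval −0.30 to 0.06, edgeR adjusted p = 0.2552), and −0.04 without Arpc4dCx3cr1 mouse 1. The interval spans 0.811-fold to 1.04-fold of the control level.

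Kcnk6, the other leak channel, was at 72.8, 73.4, 67.6 and 73.3 CPM in the controls and at 47.4, 48.3, 38.6 and 41.5 CPM in the Arpc4dCx3cr1 mice. Each Arpc4dCx3cr1 mouse was below each control. Kcnk6 fell by 0.71 on the log2 scale (SE 0.08, edgeR adjusted p = 2.725e-05), which is 0.612-fold of the control level, and by 0.74 without mouse 1.

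Kcnma1, the calcium- and voltage-activated BK channel, was at 138, 117, 157 and 120.1 CPM in the controls and at 131, 151, 193 and 182 CPM in the Arpc4dCx3cr1 mice. Control mouse 3 lay above Arpc4dCx3cr1 mice 1 and 2, so the groups overlapped. The log2 fold change was 0.31 (SE 0.13, 95% interval 0.02 to 0.59, edgeR adjusted p = 0.07656). This gene passed the threshold without control mouse 3 (0.39, adjusted p = 0.03996) and without Arpc4dCx3cr1 mouse 1 (0.41, adjusted p = 0.004401).

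Kcnn4, the calcium-activated channel of intermediate conductance, had few UMIs in control microglia, 121 in 7782 cells. It was at 4.20, 2.38, 4.10 and 4.15 CPM in the controls and at 14.3, 23.4, 11.98 and 21.9 CPM in the Arpc4dCx3cr1 mice. The lowest Arpc4dCx3cr1 value was above the highest control value. Kcnn4 rose by 2.29 on the log2 scale (SE 0.26, edgeR adjusted p = 4.424e-05), or 4.89-fold (95% interval 3.27 to 7.33), and by 2.39 without mouse 1.

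Kcnj2, the inward rectifier, was at 24.0, 24.6, 24.4 and 22.9 CPM in the controls and at 37.3, 63.3, 73.3 and 92.2 CPM in the Arpc4dCx3cr1 mice. The controls lay close together (SD 0.767), while the Arpc4dCx3cr1 mice spread widely (SD 22.9) and all lay higher. Its rise was 1.47 on the log2 scale (SE 0.22, edgeR adjusted p = 0.0003041), or 2.78-fold (95% interval 1.97 to 3.91). Without Arpc4dCx3cr1 mouse 1, the lowest of the 4, it was 1.68.

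Kcnd1, the voltage-gated channel and the only X-linked member, was at 18.2, 16.8, 19.6 and 18.7 CPM in the controls and at 4.76, 10.7, 10.7 and 7.86 CPM in the Arpc4dCx3cr1 mice. The highest Arpc4dCx3cr1 mouse remained below the lowest control. Kcnd1 fell by 1.11 on the log2 scale (SE 0.21, edgeR adjusted p = 0.001247), to 0.464-fold of the control level. The fall was 0.91 in the fit that left out Arpc4dCx3cr1 mouse 1, which had the lowest value together with the high Xist count.

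Hvcn1, the proton channel, was at 79.3, 73.6, 74.4 and 81.6 CPM in the controls and at 83.2, 102, 109 and 111 CPM in the Arpc4dCx3cr1 mice. The groups did not overlap, although mouse 1 lay just above the highest control. The rise was 0.39 on the log2 scale (SE 0.09, edgeR adjusted p = 0.003701), or 1.31-fold, and 0.48 without mouse 1.

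Shares of cells with at least 1 UMI were taken after thinning every cell to 2000 UMIs. Cells with Kcnn4 made up 0.687% ± 0.206 (SD, n = 4) of control and 3.07% ± 0.977 of Arpc4dCx3cr1 microglia, cells with Kcnj2 4.63% ± 0.558 and 10.7% ± 3.51, and cells with Kcnd1 3.70% ± 0.239 and 1.49% ± 0.628. Kcnk6 was found in 13.5% ± 0.480 and 7.38% ± 0.886 of cells, and Kcnk13 in 33.6% ± 1.34 and 28.7% ± 3.00. The groups did not overlap for these 5 genes after thinning, although for Kcnk13 the lowest control (32.2%) and the highest Arpc4dCx3cr1 mouse (31.96%) were close. Such shares were not computed over all genes, of which 44.3% did not overlap on CPM, so this count has no background of its own. For Kcnma1 the shares were 19.1% ± 1.396 and 20.4% ± 3.49, and for Hvcn1 15.2% ± 1.25 and 17.1% ± 2.21, with overlap in both. In granulocyte-like cells thinned in the same way (76 cells), these genes were found in 1.32% (Kcnn4), 2.63% (Kcnj2), 0% (Kcnd1, where 0 of 76 cells allow a share of up to 3.95%), 2.63% (Kcnk6) and 6.58% (Kcnk13). The control share of Kcnn4 was thus below this background, which is a single cell. Before thinning, control microglia-like cells had a median of 3833.5 UMIs and granulocyte-like cells of 10537.5. Without thinning, the shares in control and Arpc4dCx3cr1 microglia were 1.46% and 6.92% for Kcnn4, 9.24% and 20.9% for Kcnj2, 7.33% and 3.58% for Kcnd1, 25.2% and 16.9% for Kcnk6, and 52.2% and 49.4% for Kcnk13. Unthinned, the shares of Kcnk13 overlapped (51.1% to 53.6% in the controls and 43.7% to 52.7% in the Arpc4dCx3cr1 mice). Those of Hvcn1, at 27.1% and 34.6%, then did not overlap (25.7% to 28.7% and 30.3% to 38.1%). Thinning left out 288 control and 328 Arpc4dCx3cr1 cells with under 2000 UMIs.

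Most potassium channel genes other than the members were at or near 0 in microglia. Of 94 further pore and accessory subunit genes, 78 were under the filter on low counts. Among the 16 tested, 6 rose, 3 fell and 7 did not pass, where 22.9% of all genes tested rose and 23.2% fell. Their median log2 fold change was 0.31, beside −0.01 over all genes tested. The largest fall was that of Kcnc2, a voltage-gated channel, from 9.90 ± 1.96 to 0.204 ± 0.233 CPM (SD, n = 4, log2 fold change −5.49). Kcnk12, the closest relative of Kcnk13, fell from 46.2 ± 2.02 to 5.66 ± 2.42 CPM (log2 fold change −3.03, SE 0.22), and the difference from the fold change of Kcnk13 was not tested. Higher were Dpp6, an accessory subunit of the channel family of Kcnd1 (1.58 ± 0.509 and 18.2 ± 8.91 CPM), and Kcnj10, an inward rectifier known from astrocytes (3.46 ± 1.16 and 12.8 ± 1.76 CPM). Further rises of at least 1 on the log2 scale were found for Kcnj9, Kcnk9, Kcnh4 and Kcnd3, each at a mean under 10 CPM in both groups, and the values of Kcnk9 and Kcnd3 overlapped between genotypes. Several of these genes are known from neurons and glia, and the 12 markers of such cells and of vessels summed to 35.3 to 45.6 CPM in the controls and 98.1 to 155 CPM in the Arpc4dCx3cr1 mice. Between 3 and 5 of the 12 were at 0 in a mouse, and Mbp (29.0 and 38.8 CPM) and Flt1 (4.21 and 71.6 CPM) made up most of both sums. The neuronal markers were at 0.272 and 0.368 CPM (Snap25) and at 1.52 and 0.205 CPM (Rbfox3). Of the astrocyte markers, Gfap was at 0.108 and 1.85 CPM and Slc1a2 at 0.352 and 2.11 CPM, both higher in the Arpc4dCx3cr1 mice like Kcnj10, and Aqp4 was at 1.36 and 0.997 CPM. The part of such cells in these values was not tested.

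**Figure D2:**
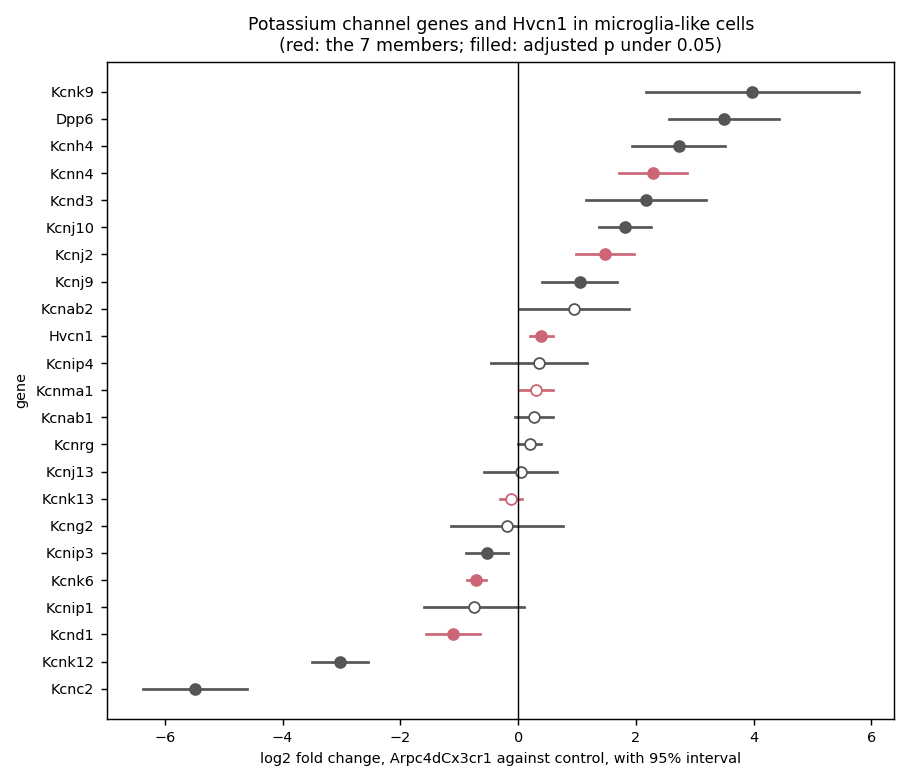
Log2 fold change of Arpc4dCx3cr1 against control microglia (x axis) with its 95% interval for the 23 genes that passed the filter, potassium channel genes and Hvcn1 (y axis), members in red and filled points for an adjusted p under 0.05. Kcnn4 and Kcnj2 lie among the rises, Kcnk6 and Kcnd1 among the falls, and Kcnc2 at −5.49 is the lowest of the 23.

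Genes that work beside these channels moved in both directions. Of all genes tested, 22.9% rose and 23.2% fell, which is the background for each list counted here and below. Among purinergic receptors and ectonucleotidases, which couple ATP and ADP to potassium currents of microglia, 1 of 7 tested genes rose and 4 fell (median log2 fold change −0.48). P2ry12, the ADP receptor, fell from 2630 ± 93.8 to 731 ± 170.0 CPM and P2ry13 from 341 ± 11.6 to 102 ± 19.3 CPM, while P2rx4, an ATP-gated cation channel, rose from 87.0 ± 4.23 to 194 ± 18.2 CPM. Entpd1, which degrades extracellular ATP, fell by 0.48 on the log2 scale. All 6 genes of the NLRP3 inflammasome list passed, 2 higher and 4 lower. Il1b, its cytokine, rose from 4.70 ± 0.823 to 101 ± 78.9 CPM, with 219 CPM in Arpc4dCx3cr1 mouse 1 and 57.0 to 69.4 CPM in the other 3, whereas Nlrp3, the sensor, fell from 78.0 ± 7.78 to 52.2 ± 5.56 CPM, and Pycard, the adaptor, and Nek7 fell by 0.39 and by 0.30 on the log2 scale.

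Of the 7 NADPH oxidase genes, the partners of the proton channel, 3 rose and 2 fell (median log2 fold change 0.19). Cybb, the catalytic subunit, rose from 19.0 ± 4.75 to 343 ± 66.8 CPM, with a log2 fold change of 4.15 (SE 0.19). Cyba rose by 0.39 on the log2 scale, and Rac1 fell by 0.34. In the list of acid-base transport 2 of 6 tested genes rose and 2 fell. There the lactate exporter Slc16a3 rose from 19.99 ± 2.24 to 45.8 ± 8.47 CPM, while Slc9a9 and Slc4a7 fell by 0.24 and by 0.23 on the log2 scale.

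Calcium entry and release, which sets the opening of the channels of Kcnma1 and Kcnn4, counted 6 rises and 6 falls among 17 genes. Orai1, the store-operated calcium channel, fell by 0.64 and Calm2 by 0.97 on the log2 scale, while Trpm7 rose by 0.15. Among 13 chloride and volume-regulated channels 4 rose and 6 fell. Lrrc8d, a subunit of the volume-regulated anion channel, rose by 0.37 on the log2 scale, and Clcn5, Clic1 and Ano6 fell by 0.61, by 0.29 and by 0.15.

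The members differed among the 12 clusters into which the microglia-like cells fell. Clusters 1, 2, 4 and 7 held mostly control cells, the other 8 mostly Arpc4dCx3cr1 cells. Clusters 10 and 8 were the most mixed, at 74.4% and 77.3% Arpc4dCx3cr1 with mice weighted equally. The CPM of a cluster is taken over its cells of both genotypes. Ranges over mice are those of the genotype that made up most of a cluster, and CPM of clusters and cell classes are scaled by the total alone. The channel genes were kept out of the clustering.

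Kcnj2 was highest in cluster 8, led by the chemokine genes Ccl4 and Ccl3, where it stood at 150.1 CPM (87.3 to 218 CPM over the 4 mice). It was at 77.5 CPM in cluster 0 and at 30.4 to 57.9 CPM in the other clusters of Arpc4dCx3cr1 cells, against 19.7 to 26.2 CPM in the 4 control clusters. Kcnn4 was highest in the same cluster 8, at 34.8 CPM (29.8 to 48.5 CPM over mice). It lay between 11.7 and 20.5 CPM in the remaining Arpc4dCx3cr1 clusters and between 1.61 and 4.79 CPM in the control clusters. Hvcn1 reached 131 CPM in cluster 8 and 135 CPM in cluster 11, the latter led by Cst7 and Spp1, and ranged from 75.2 to 115 CPM in the remaining Arpc4dCx3cr1 clusters and from 71.7 to 99.4 CPM in the control clusters.

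Kcnma1 varied widely among the clusters of one genotype. It was at 238 CPM in cluster 8 and at 229 CPM in cluster 0 (216 to 232 CPM over mice), and at 12.4 CPM in cluster 6 (5.08 to 17.7 CPM) and 11.5 CPM in cluster 11 (14 UMIs). Cluster 6 was the one with the highest Ms4a7, a gene of other brain macrophages, and it was also led by hemoglobin genes and H2-Aa. Over all microglia-like cells, hemoglobin genes were high in Arpc4dCx3cr1 mouse 1 alone (1490.5 CPM, against at most 4.21 CPM in the other mice). In the control clusters Kcnma1 was at 176, 125, 78.9 and 37.9 CPM in clusters 1, 2, 4 and 7, whose cells had a median of 4944, 3738, 3084 and 2434.5 UMIs. Kcnk13 took the same order there, with 262, 218, 171 and 126 CPM. The depth of the cells thus moved with both genes, and its part in the differences was not tested. Clusters 6 and 11 were shallow as well, with medians of 2868 and 2590 UMIs.

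Kcnk13 was lowest in cluster 11, at 67.3 CPM (60.3 to 73.8 CPM over mice), and between 152 and 254 CPM in the other Arpc4dCx3cr1 clusters. Kcnk6 was between 61.5 and 84.3 CPM in the control clusters and between 24.9 and 68.5 CPM in the others. Cluster 10, led by Arhgap15 and Negr1, had the highest Kcnk6 among the latter (44.4 to 69.0 CPM over mice). It also had the highest Kcnd1 among them, at 17.8 CPM (0 to 18.6 CPM over mice). These levels include the control cells of this mixed cluster, whereas the ranges over mice do not. In the control clusters Kcnd1 stood at 15.7 to 21.2 CPM, and in the other Arpc4dCx3cr1 clusters at 2.39 to 11.2 CPM. Cluster 3, led by Xist and Fn1, had 10 or more cells from only 2 of the 4 Arpc4dCx3cr1 mice.

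**Figure D3:**
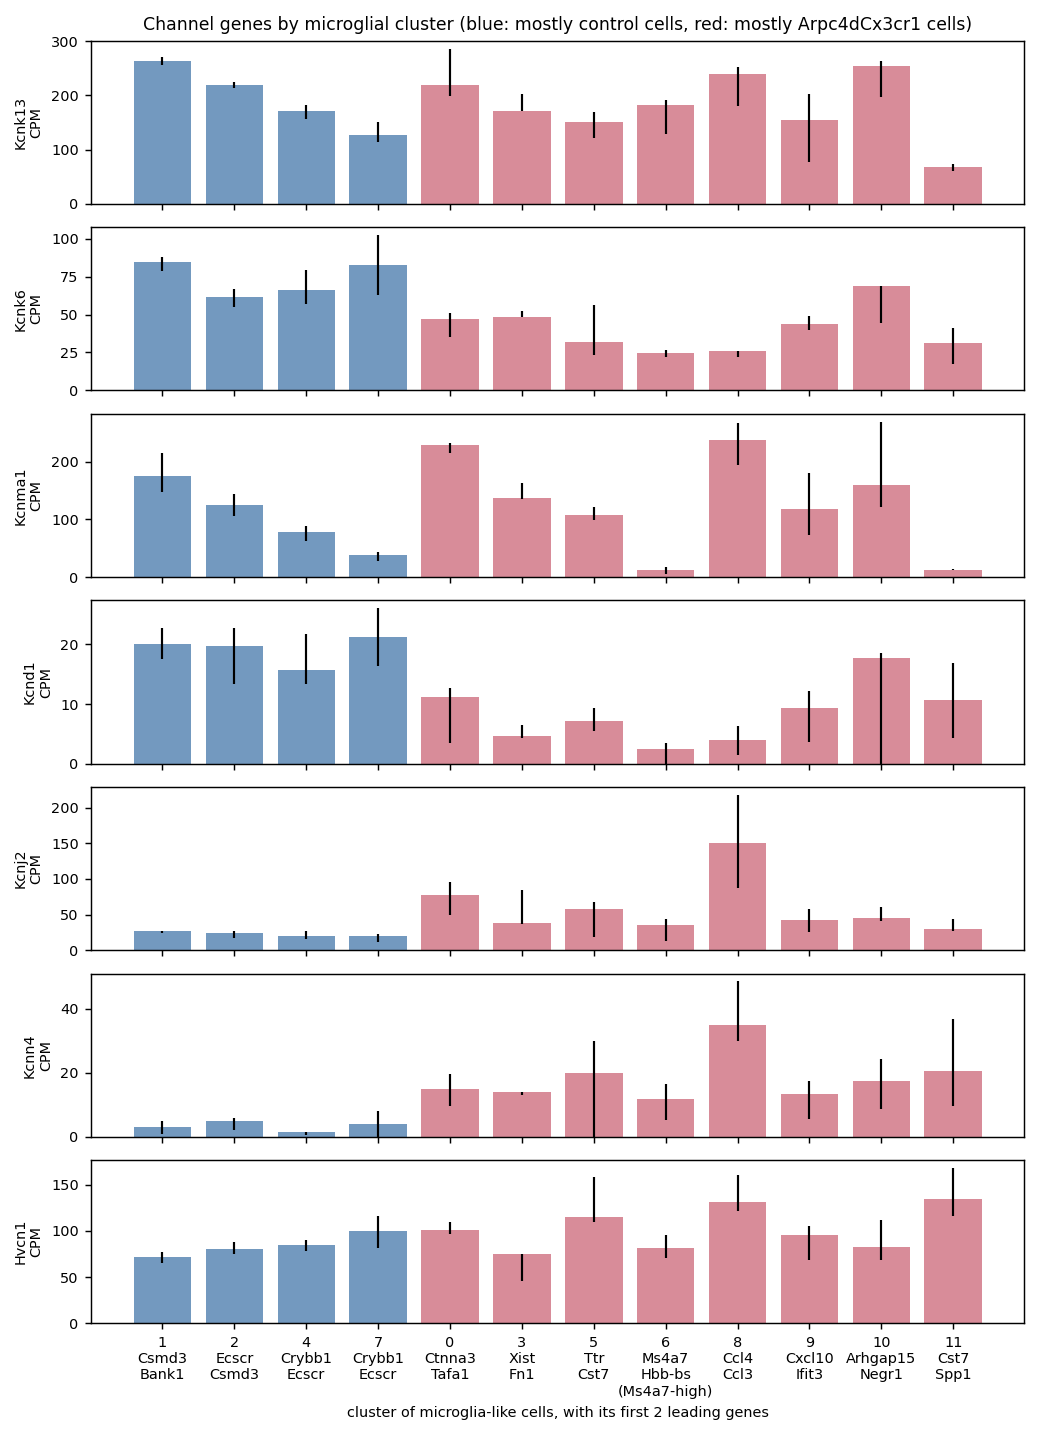
CPM of each member (y axes, from 0) in the 12 clusters of microglia-like cells (x axis), as bars for all cells of a cluster and black lines from the lowest to the highest mouse of the genotype that made up most of it. The bars of Kcnj2 and Kcnn4 are tallest in cluster 8, at 150.1 and 34.8 CPM, and those of Kcnma1 are near 12 CPM in clusters 6 and 11.

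A further comparison set the Ms4a7-high cluster against the other microglia-like cells of the same 4 Arpc4dCx3cr1 mice. That these cells count as microglia-like depends on the naming. Among the clusters of all cells, the one led by Ms4a7 and hemoglobin genes (1218 cells) had 4 of the 10 microglia markers at the limit used and 2 at the stricter limit of 1 on the log2 scale, where 3 were needed. The lower limit was set after the clusters were seen, so that this cluster kept its name. At a clustering resolution of 0.4, Ms4a7 and the hemoglobin genes were among the leading genes of a CAM-like cluster of 1734 cells, together with Pf4 and Mrc1, markers of CNS-associated macrophages. The values below therefore do not show a difference within microglia alone. Kcnma1, Kcnk6 and Kcnd1 were lower in Ms4a7-high cells, and no member was higher with the test. These are 3 of 7 members (edgeR, without the pairing of the sums by mouse). Of 11651 genes, 13.6% were called, 7.36% as lower and 6.27% as higher. The values of both parts did not overlap for these 3 members, as for 20.6% of all genes. With the mouse as a block, which takes up the pairing, Kcnj2 and Kcnn4 were called as lower as well, and more genes were called (given below).

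Kcnma1 was at 130, 160.4, 195 and 195 CPM in the other microglia of Arpc4dCx3cr1 mice 1 to 4 and at 5.41, 13.9, 18.1 and 12.7 CPM in their Ms4a7-high cells. It was lower in the Ms4a7-high cells of each of the 4 mice. The log2 fold change was −3.70 (SE 0.22, edgeR adjusted p = 7.224e-06) and −3.67 without mouse 1. The Ms4a7-high cluster had a median of 2868 UMIs per cell. Of the shallower clusters, control cluster 7 (2434.5 UMIs) had 37.9 CPM of Kcnma1 and cluster 11 (2590 UMIs) had 11.5 CPM. The part of depth in this difference was not tested.

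Kcnk6 was at 45.7, 48.9, 37.5 and 41.1 CPM in the other microglia and at 27.1, 22.1, 24.6 and 26.9 CPM in the Ms4a7-high cells, again lower in each mouse (log2 fold change −0.79, SE 0.14, edgeR adjusted p = 0.003895). Kcnd1 was at 4.75, 11.1, 10.7 and 7.98 CPM and at 0, 2.46, 2.59 and 3.54 CPM. Its log2 fold change of −1.78 (SE 0.52, edgeR adjusted p = 0.04316) did not pass without mouse 2, 3 or 4 (adjusted p = 0.181, 0.1592 and 0.1233), and in the Ms4a7-high cells it rested on few UMIs.

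The leak channel Kcnk13 did not pass, with 161, 214, 181 and 207 CPM in the other microglia and 137, 189, 195.5 and 192 CPM in the Ms4a7-high cells (log2 fold change −0.08, 95% interval −0.37 to 0.20, edgeR adjusted p = 0.7344). Kcnj2 was lower in the Ms4a7-high cells of each mouse, with 36.4, 62.1, 72.4 and 93.5 CPM in the other cells and 14.4, 44.3, 31.1 and 42.5 CPM in the Ms4a7-high ones. Its log2 fold change of −0.89 (SE 0.32) did not pass (edgeR adjusted p = 0.0921), but passed with the mouse as a block (−0.96, adjusted p = 9.708e-06) and without mouse 1 (−0.92, adjusted p = 0.004297). Kcnn4 had a log2 fold change of −0.53 (edgeR adjusted p = 0.3481), or −0.63 with the mouse as a block (adjusted p = 0.03637). For Hvcn1 it was −0.21 (95% interval −0.50 to 0.08, edgeR adjusted p = 0.3397). Under the block, 2579 genes passed in place of 1588. Without mouse 2, 3 or 4, 640, 644 or 495 genes passed.

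**Figure D4:**
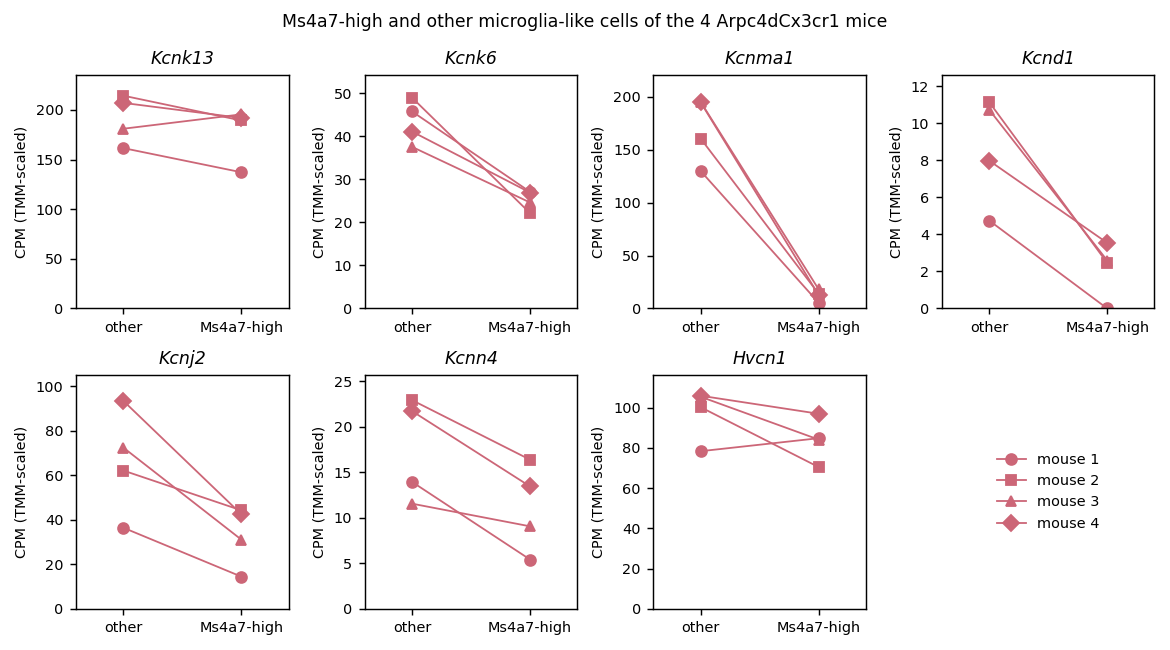
TMM-scaled CPM (y axes, from 0) of each member in the Ms4a7-high cells and the other microglia-like cells of the 4 Arpc4dCx3cr1 mice, with 1 line per mouse. The lines of Kcnma1 drop from 130 to 195 CPM to 5.41 to 18.1 CPM in all 4 mice, while those of Kcnk13 run nearly level.

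Another comparison took CNS-associated macrophages (CAMs), which lie in the meninges and along vessels, against microglia in the 4 control mice. Kcnma1, Kcnk6, Kcnd1 and Hvcn1 were lower in CAM-like cells, and Kcnk13, Kcnj2 and Kcnn4 did not pass. These 4 of 7 members were called (edgeR, without the pairing of the sums by mouse). Of 10579 genes, 30.3% were called, 14.2% as lower and 16.1% as higher. The values did not overlap for 6 members, all but Kcnk13, and for 34.4% of all genes. The CAM-like sums came from 285 cells, and their TMM factors (0.897 to 0.938) were below those of microglia (all above 1).

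Kcnma1 was at 132, 112, 150.3 and 115 CPM in the microglia of control mice 1 to 4 and at 0, 16.5, 20.2 and 15.9 CPM in their CAM-like cells (log2 fold change −3.11, SE 0.32, edgeR adjusted p = 1.172e-09). Hvcn1 was at 70.5 to 78.0 CPM in microglia and at 27.8 to 39.3 CPM in CAM-like cells (log2 fold change −1.24, SE 0.20, edgeR adjusted p = 8.824e-06). For Kcnk6 the ranges were 64.8 to 70.3 CPM and 27.8 to 45.4 CPM (log2 fold change −1.06, SE 0.20, edgeR adjusted p = 9.459e-05). In every control mouse these genes were lower in the CAM-like cells.

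Kcnd1 was at 16.1 to 18.8 CPM in microglia and at 0 to 11.9 CPM in CAM-like cells, which held 5 of its UMIs in all. Its log2 fold change of −1.93 (SE 0.51, edgeR adjusted p = 0.003651) did not pass without control mouse 3 (−1.57, adjusted p = 0.064). Kcnk13 was at 199 to 215 CPM in microglia and at 139 to 216 CPM in CAM-like cells (log2 fold change −0.16, 95% interval −0.38 to 0.06, edgeR adjusted p = 0.289). Kcnn4 was the only member with a higher value in CAM-like cells, 7.59 to 14.7 CPM against 2.28 to 4.02 CPM (log2 fold change 1.39, SE 0.57, edgeR adjusted p = 0.06513). It rested on 10 UMIs in CAM-like cells and passed with DESeq2 (adjusted p = 0.02132) and after 10% of ambient RNA was subtracted (adjusted p = 0.03445). Kcnj2 was at 21.9 to 23.6 CPM and at 5.06 to 19.9 CPM (log2 fold change −0.74, SE 0.34, edgeR adjusted p = 0.1047).

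Between genotypes, CAM-like cells were too few (285 control and 124 Arpc4dCx3cr1 cells) for the members except Kcnk13, the only one past the filter on low counts. Kcnk13 was at 231, 217, 200.4 and 149 CPM in the controls and at 85.2, 247, 92.0 and 157 CPM in the Arpc4dCx3cr1 mice, with 10 to 20 UMIs in each of the latter. The groups overlapped (log2 fold change −0.52, 95% interval −1.11 to 0.08, edgeR adjusted p = 0.5094, unadjusted p = 0.08469), where 0.985% of 3350 genes passed, 0.537% as higher and 0.448% as lower, and 6.81% did not overlap. Without Arpc4dCx3cr1 mouse 1 the log2 fold change was −0.32.

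In the other cell classes the levels are sums over cells with exact 95% Poisson intervals, which cover counting error only, and no test was made. RNA free in the droplets adds UMIs of microglial genes to every class. Each level is therefore set against the level in barcodes with at most 100 UMIs. These barcodes come from the pool of all mice and hold RNA of both genotypes. Each level is also set against P2ry12, a receptor gene of microglia, in the same cells. In control cells P2ry12 was at 60.3% of its level in those barcodes in CAM-like, 85.5% in T cell-like, 70.9% in proliferating cell-like and between 10.7% and 36.8% in B cell-like, granulocyte-like and monocyte-like cells. The proliferating class was led by Elane, Prtn3 and Mpo, genes of granulocyte precursors, and the T cell-like class also by Gzma and Nkg7, genes of cytotoxic cells.

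Hvcn1 was highest in B cell-like cells, with 25 UMIs in 43 control cells or 175 CPM (113 to 258), 189% of the level in the near-empty barcodes. Granulocyte-like cells followed with 82.0 CPM (53.6 to 120.2), microglia-like cells with 79.8 CPM (76.7 to 82.9), whose interval lies within that of granulocyte-like cells. Below them were proliferating cell-like cells with 56.4 CPM (39.3 to 78.5), T cell-like cells with 50.2 CPM (35.5 to 68.8), whose intervals overlap, and CAM-like cells with 28.3 CPM (19.6 to 39.6). Monocyte-like cells had the lowest Hvcn1 level, 17.0 CPM (9.27 to 28.5).

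Kcnn4 was highest in monocyte-like cells, at 37.6 CPM (25.5 to 53.3) or 243% of the near-empty barcodes. T cell-like cells had 22.4 CPM (13.1 to 35.9), which is 145% against 85.5% for P2ry12, and B cell-like cells had 21 CPM from 3 UMIs (4.33 to 61.4). Control microglia, at 3.75 CPM (3.11 to 4.48), had the second lowest level, next to granulocyte-like cells with 1 UMI, whose interval of 0.0799 to 17.6 CPM covers it. The microglial level was also below that of the near-empty barcodes (15.5 CPM), which hold RNA of both genotypes.

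Kcnk13 was at 225 CPM (219 to 230) in microglia-like and at 169 CPM (147 to 194) in CAM-like cells, the latter 129.7% of the near-empty barcodes beside 60.3% for P2ry12. In T cell-like cells its 93.7 CPM were 71.9%, below the 85.5% of P2ry12, and the other classes were between 14 and 85.4 CPM. Kcnma1 was at 136 CPM in microglia-like cells, 54.1 CPM in T cell-like and 46.8 CPM in proliferating cell-like cells, the latter both at a lower percentage of the near-empty barcodes (78.4% and 67.7%) than P2ry12, and at 3.16 to 17.0 CPM elsewhere. Kcnk6, at 74.4 CPM in microglia-like cells, and Kcnd1, at 19.0 CPM, were likewise highest in microglia, although the interval of Kcnd1 in proliferating cell-like cells (5.57 to 25.4 CPM) overlaps that in microglia (17.5 to 20.6 CPM). Kcnd1 had 0 UMIs in B cell-like and in granulocyte-like cells, which allows up to 21 and 9.47 CPM (3 UMIs). Kcnj2 was at 24.9 CPM (23.2 to 26.7) in control microglia, below the 29.5 CPM of the near-empty barcodes, and at 7 to 12.6 CPM in the other classes, with intervals that overlap it in granulocyte-like and B cell-like cells.

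**Figure D5:**
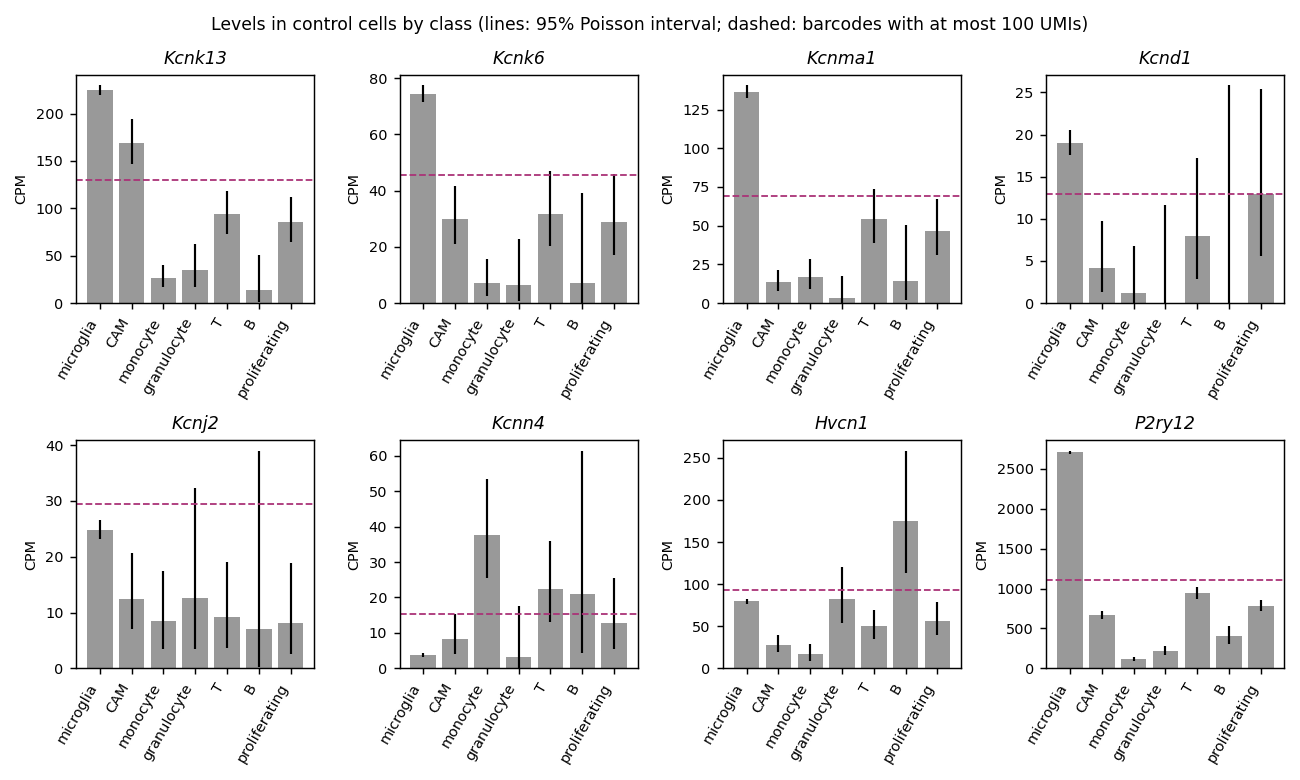
CPM by total (y axes, from 0) of the 7 members and P2ry12 in the control cells of each class (x axis), with lines for 95% Poisson intervals and a dashed line for the level in barcodes with at most 100 UMIs. Hvcn1 is tallest in B cell-like cells at 175 CPM and Kcnn4 in monocyte-like cells at 37.6 CPM, whereas the other members are tallest in microglia-like cells among these classes.

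Over the 19 clusters of all cells, the genes most like each member were found by Pearson's r on log2(CPM + 10). The clusters share 1 library and differ in depth, so these values are a description. Kcnk13 was most like Ptpra, Gna12 and Man1c1 (r = 0.985, 0.977 and 0.973), and Kcnk6 most like Rgmb, Gna15 and Pros1 (0.977, 0.977 and 0.965). Plcl1, Klhl7 and Chn2 came nearest to Kcnma1 (0.954, 0.947 and 0.946). For Kcnd1 they were Sall1, Gm33699 and Ccdc85c (0.922, 0.920 and 0.910), of which Sall1 is a transcription factor of microglial identity. Kcnj2 was closest to Olfr110, Hif1a and Ank (0.937, 0.937 and 0.907). The values were lower for Kcnn4, with Stard4, Itgax and H2-Q7 (0.832, 0.810 and 0.804), and for Hvcn1, with Tent5c, Klc4 and Pex16 (0.823, 0.707 and 0.679).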

How the data were processed

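Per the labels and the study's methods, the authors prepared 1 pooled 3′ library (10x v3.1) with tags per mouse, aligned reads to mm10 with Cell Ranger (7.1.0 in the headers and methods, 6.1.2 in the submitters' processing notes) and assigned cells to mice. The deposited counts are raw UMI counts per gene and barcode, for each mouse and for the unfiltered pool. Group and number of each mouse come from the tag labels. The members and gene lists were chosen with earlier results of these data known.

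Cells were kept from 200 genes upwards and up to 20% mitochondrial UMIs, and clustered with Seurat 5.3.0 in R 4.3.3 (10000 variable genes without the channel genes, 20 components, 20 neighbours, Louvain, resolution 0.8) and named from marker lists. The limits for naming, 1 on the log2 scale for a class median and 0.5 for a single microglia marker (at least 3 needed), were chosen after the clusters were seen, the latter so that the cluster led by Ms4a7 kept a microglia-like name, and clusters of few UMIs (1509 cells) stayed unnamed. No barcode was found for 2 mice, and whether cells with 2 tags remained among the deposited ones was not checked. Scrublet (scanpy 1.11.5) called 68 cells, 0.342%, and is taken as not having worked. Microglia-like cells were clustered again in the same way, and the cluster with the highest Ms4a7 level was called Ms4a7-high.

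UMIs were summed per mouse (at least 10 cells) and tested with edgeR 4.0.16 (TMM scaling after filterByExpr, quasi-likelihood test) at a Benjamini-Hochberg adjusted p under 0.05, with DESeq2 1.42.0 as an alternative. CPM beside a test are TMM-scaled, others are by total. The test was tried on simulated counts with the same spread between mice for all genes and changes only in genes of higher counts. That trial does not cover members with few UMIs or a wide spread between mice. Sums of 2 cell groups from 1 mouse are paired by design, which an alternative with the mouse as block term took up. Across genotypes, mice of the same number did not deviate together (correlations of −0.076 to −0.013 in microglia), so these numbers are no pairing. Genes named were the members, Arpc4, up to 10 other potassium channel genes past the threshold with a log2 fold change of at least 1, up to 4 called genes per further list, by mean CPM, and the 3 genes most like each member. Positions are from GENCODE vM21. P-values weigh a difference against the spread between the sums of these mice. Where 2 sums of a mouse were compared without the block, that is not the spread of differences within a mouse. Python 3.11.15 with numpy 2.4.6, pandas 2.3.3 and scipy 1.17.1 did the rest. Some genes that this rule names are not reported here.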

Additional observations from a re-analysis of the deposited data

Results flagged for a closer look

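A pair of values of control mice lay far from those of the other 3 controls in microglia-like cells, among 14 groups of 4 mice checked, and chance flags about 1 in 20 groups. Kcnk6 was at 67.6 CPM in control mouse 3, the lowest of its group by 0.897 of the range, and Kcnn4 was at 2.38 CPM in control mouse 2, the lowest by 0.947 of the range. Both lay on the same side of the Arpc4dCx3cr1 mice as the other controls.

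Kcnn4 also differed in the unnamed clusters of few UMIs, which entered no comparison. There it was at 31.5 CPM over the Arpc4dCx3cr1 mice (22 UMIs, 19.9 to 50.8 CPM per mouse) and at 6.60 CPM over the controls (9 UMIs, 0 to 10.8 CPM per mouse), and the difference was not tested.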

How the results depend on the processing

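Of 299 values of members under alternative settings none changed direction. Those under the added condition of a fold change over 2 are copies of the main fit and could not change. The fit without the cells called by Scrublet left out at most 68 cells. Between genotypes in microglia, Kcnk6, Kcnd1, Kcnj2, Kcnn4 and Hvcn1 passed in all alternatives but 1, the added condition of a fold change over 2, under which 1569 genes passed and Kcnk6 and Hvcn1 did not. Kcnk13 passed in none. Its lowest adjusted p was 0.108, and with 1 mouse left out the highest was 0.5527 (edgeR). Kcnma1 passed also with the mouse number as a replicate block (adjusted p = 0.04095), without the filter on low counts (0.04973), at clustering resolution 0.4 (0.02308) and, chosen after seeing the data, without the microglia-like cluster that had few markers (0.02705). The cause was not tested.

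Leaving out 1 mouse gave 5179 to 6393 genes between genotypes in microglia, 2535 to 2934 between CAM-like and microglia-like cells, 495 to 2167 between Ms4a7-high and other microglia and 12 to 63 between genotypes in CAM-like cells (17 without control mouse 1, 12 without control mouse 3, 59 and 63 without Arpc4dCx3cr1 mouse 2 and 4). The mouse as a replicate block gave 2579 genes for Ms4a7-high cells, where sums are paired, and 15 in CAM-like cells, where numbers are no pairing, and changed no other call of a member than those given here and in the report. In CAM-like cells 131 genes passed with no filter and 13 after 25% of ambient RNA was subtracted (chosen after seeing the data). Kcnj2 in Ms4a7-high cells passed with DESeq2 (adjusted p = 0.04105) and with no filter (0.01208). Shares of cells did not overlap between genotypes for 5 members with thinning and for 5 without, with no such count made over all genes. Without thinning, Hvcn1 took the place of Kcnk13. In other classes, 32 of 42 levels of members reached 3 UMIs, 30 after 10% of ambient RNA was subtracted. Levels of few UMIs, Kcnn4 in control microglia and all members outside microglia, are limited by depth.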
